A study of Homo sapiens with 4 samples.

Results

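The long noncoding RNAs that host small nucleolar RNAs (snoRNAs) were examined in 4 RNA-seq libraries of HCT116, an established human colorectal cancer cell line. The members were all genes with a GENCODE symbol of the form SNHG followed by a number (small nucleolar RNA host gene), together with GAS5, ZFAS1 and EPB41L4A-AS1. This rule on names uses no measured value, but it was chosen with earlier results of these data known. The rule found 31 genes among the 58735 gene identifiers of the libraries. Of these, 25 reached a mean of 1 FPKM (fragments per kilobase of transcript, scaled to the size of the library), as did 14523 genes in all. The 6 others comprised SNHG18, SNHG27 and SNHG28, which were listed at 0 in every library, and SNHG14, SNHG22 and SNHG31, which stayed under this level.

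The libraries formed a control siRNA group and a KIF26B siRNA group with 2 libraries each, all from HCT116 cells taken 48 h after siRNA transfection, with no other treatment named in the labels. KIF26B encodes a kinesin, and the comparison asked which transcripts differ when it is depleted. The study used more than 1 siRNA against KIF26B, and which of them entered each library is not given in the sources used here. The labels do not say whether the libraries of a group came from separate cultures, so p-values measure only the spread between these libraries, which may be technical.

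SnoRNAs guide the chemical modification of ribosomal and other RNAs. Box C/D snoRNAs direct 2'-O-methylation and box H/ACA snoRNAs direct pseudouridylation. Most human snoRNAs lie in introns and are released when the intron is spliced out, while the spliced exons of a noncoding host are exported and, for several hosts such as GAS5, are degraded by nonsense-mediated decay. Many hosts are transcribed from promoters with a terminal oligopyrimidine (TOP) start, a C followed by further pyrimidines, which they share with mRNAs of ribosomal proteins.

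The start sites were therefore read in the RefSeq promoters of GRCh38.p14, which hold an entry for 27 of the 31 members. The promoters of the 4 others, SNHG6, SNHG9, SNHG15 and SNHG25, were not analysed here. A TOP-like start, counted as a C followed by at least 4 pyrimidines within 5 bases of the annotated start on the sense strand, stood in 12 of these 27 promoters. This was 44.4% of them, against 21.1% of 35116 promoters of the same length and 69.4% of the 85 promoters of cytosolic ribosomal proteins. The windows below show 10 bases before and 30 bases after the annotated start for some members, whether or not they passed a test below. The pyrimidine run is in capitals where one was found, and the windows printed are not a sample of the members.
ZFAS1, chr20:49278632-49278672, plus strand: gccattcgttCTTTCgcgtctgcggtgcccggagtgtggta
SNHG32, chr6:31834906-31834946, plus strand: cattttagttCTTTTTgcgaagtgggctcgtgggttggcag
SNHG5, chr6:85678703-85678743, minus strand: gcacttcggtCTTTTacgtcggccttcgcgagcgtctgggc
SNHG19, chr16:2155328-2155368, minus strand: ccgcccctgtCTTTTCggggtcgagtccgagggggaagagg
SNHG8, chr4:118278752-118278792, plus strand: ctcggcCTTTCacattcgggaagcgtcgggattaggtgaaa
SNHG4, chr5:139274091-139274131, plus strand: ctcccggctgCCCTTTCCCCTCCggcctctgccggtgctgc
GAS5, chr1:173869015-173869055, minus strand: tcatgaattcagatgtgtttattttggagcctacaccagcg
SNHG29, chr17:16438977-16439017, plus strand: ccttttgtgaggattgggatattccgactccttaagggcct
EPB41L4A-AS1, chr5:112160516-112160556, plus strand: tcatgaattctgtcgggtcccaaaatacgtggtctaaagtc
The run began at the annotated start of the promoter entry in ZFAS1, SNHG32, SNHG5, SNHG19 and SNHG4 and 4 bases before it in SNHG8. For ZFAS1 this start lies inside the gene span given below, which begins at chr20:49278178. In SNHG4 it was 13 bases long, while in ZFAS1 and SNHG5 it was 5 bases long. GAS5, SNHG29 and EPB41L4A-AS1 had no run by this count, which says only that these letters are not at the annotated start. SNHG20 and SNHG30, whose windows are not printed, had none either. The E-box CACGTG, read on both strands, occurred in the promoters of SNHG7 and SNHG30, or 7.41% of the 27, against 7.26% of all promoters. The ETS motif CCGGAAGT, read on both strands, occurred in that of SNHG20, or 3.7%, against 4.14% of all promoters. The median GC share of the members' promoters was 62%, against 58.7% over all promoters.

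KIF26B itself was low in all libraries, at 0.110 and 0.205 FPKM in the controls and 0.140 and 0.0307 FPKM under KIF26B siRNA (31, 73, 43 and 8 reads, respectively). The controls thus bracketed the library labelled KIF26B siRNA replicate 1, and replicate 2 alone was below both. The group difference did not pass the test in a fit without a filter on low values (limma log2 fold change -0.09, adjusted p = 0.775), where the 1 added to each FPKM understates a difference between levels this low. Directions below rest on the labels and are given for each KIF26B siRNA library as well. The reads recovered from the FPKM steps numbered 18704833 to 24220874 per library, and mitochondrial genes held 7.0% to 9.83% of them, highest in the library labelled KIF26B siRNA replicate 1. Of 8 epithelial markers, 6 were at 1 FPKM or more in every library, with a summed level of 1563 to 1696 FPKM, while CDX1 was at 0. The summed level of 6 fibroblast markers was 4.87 to 8.76 FPKM, nearly all of it COL1A1. The summed level of 5 immune markers was 0.226 to 0.536 FPKM and that of the endothelial markers 0.0730 to 0.201 FPKM.

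The members differed widely in level. In the control siRNA libraries SNHG6 was highest at 114 and 117 FPKM, followed by SNHG29 at 73.4 and 74.4 FPKM. SNHG19 at 53.9 and 68.9 FPKM and GAS5 at 55.8 and 57.1 FPKM came next, and their order was not set apart by the spread between the controls. These 4 genes and SNHG1 held 61.8% of the members' summed control level. The lowest tested member, SNHG20, was at 0.921 and 0.866 FPKM.

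**Figure D1:**
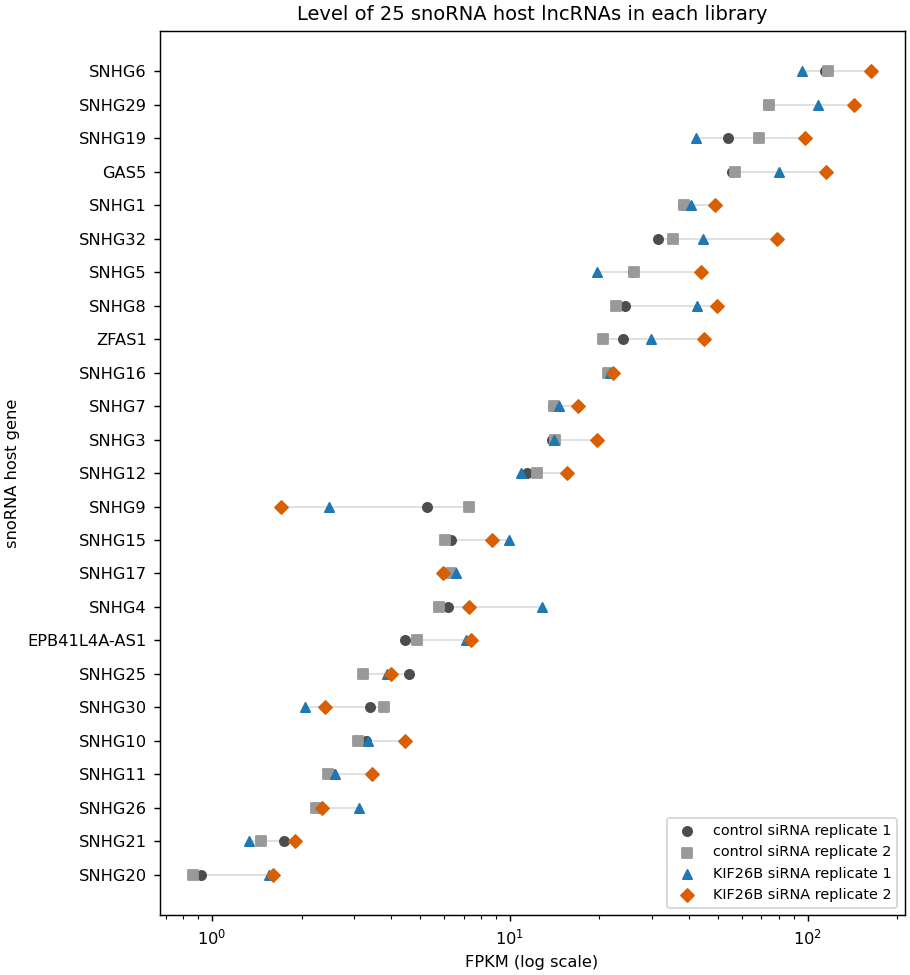
FPKM (log axis) of the 25 tested snoRNA host genes in each of the 4 libraries, ordered by control mean, with 1 symbol per library and a grey line from the lowest to the highest. KIF26B siRNA replicate 2 is the highest library for most members, and SNHG9 and SNHG30 are the members whose KIF26B siRNA libraries both lie below both controls.

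Most members were at a higher level in the KIF26B siRNA group. The log2 fold change, on the log2(FPKM + 1) scale, was above 0 in 22 of 25 tested members, or 88%, against 48.4% of all genes tested. Its median was 0.19 over the members and -0.01 over all genes. In bulk RNA, more transcript per cell and more cells with the transcript cannot be told apart. The KIF26B siRNA libraries both lay above both controls for 15 members, where 24.9% of all genes did so, and both lay below both controls for 2 members, where 27.8% of all genes did so. The summed level of all members was 549 and 570 FPKM in the controls, 622 FPKM in the library labelled KIF26B siRNA replicate 1 and 912 FPKM in replicate 2.

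By the limma test at an unadjusted p below 0.05, 7 members were higher and 2 were lower. Over all genes tested, 7.74% were higher and 8.68% lower by this rule, or 16.4% in either direction. No member passed at an adjusted p below 0.05. Neither did any other gene, in either direction (0%), and limma-voom on the recovered reads also called 0%. The smallest adjusted p of a member was 0.242, which was also the smallest of all genes. With the study's thresholds, an unadjusted p below 0.05 and an absolute log2 fold change over 1, 0 members were higher and 1, SNHG9, was lower, against 0.813% and 0.606% of all genes. With 2 libraries per group an exact permutation test cannot give a p below 0.333, so none was used.

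SNHG8 (ENSG00000269893), the host of SNORA24 (chr4:118278762-118279823, GRCh38.p14 as for all positions here), showed the highest log2 fold change of the members. Its level was 24.3 and 22.7 FPKM in the controls and 42.4 and 49.7 FPKM under KIF26B siRNA. Both KIF26B siRNA libraries lay well above both controls and near each other. The group means were 23.5 ± 1.09 and 46.1 ± 5.13 FPKM (SD, n = 2 each), a ratio of 1.96. On the log2(FPKM + 1) scale the difference was 0.94 ± 0.14 (SE, limma, unadjusted p = 0.00238, adjusted p = 0.242). SNHG8 stayed under an unadjusted p of 0.05 with each of the 4 libraries left out in turn, at a log2 fold change of 0.83 to 1.05.

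GAS5 (ENSG00000234741, growth arrest specific 5, chr1:173863901-173869045), which hosts a cluster of box C/D snoRNAs, was at 55.8 and 57.1 FPKM in the controls and at 80.4 and 115 FPKM under KIF26B siRNA. The groups did not overlap, and the controls lay far closer together than the KIF26B siRNA libraries. The difference was 0.76 ± 0.21 on the log2 scale (SE, limma, unadjusted p = 0.0231, adjusted p = 0.267). SNHG29, the host of SNORD49A, SNORD49B and SNORD65 (chr17:16438987-16470648), followed the same order of libraries, at 73.4 and 74.4 FPKM in the controls and 108 and 143 FPKM in the KIF26B siRNA group. Its difference was 0.74 ± 0.18 (SE, limma, unadjusted p = 0.0138, adjusted p = 0.248). ZFAS1, which lies antisense to the start of ZNFX1 and hosts the SNORD12 family (chr20:49278178-49289260), was at 23.9 and 20.6 FPKM in the controls and 29.9 and 44.8 FPKM under KIF26B siRNA. The library labelled KIF26B siRNA replicate 1 exceeded the higher control by less than the 2 KIF26B siRNA libraries differed. The difference was 0.70 ± 0.24 (SE, limma, unadjusted p = 0.0437, adjusted p = 0.294), and with KIF26B siRNA replicate 2 left out it was 0.41 at an unadjusted p of 0.0566 by limma (adjusted p = 0.134). With a pseudocount of 0.1 the unadjusted p of ZFAS1 was 0.0551 (limma).

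The 3 other members that were higher by this rule had lower levels and closer KIF26B siRNA libraries. EPB41L4A-AS1, the host of SNORA13 (chr5:112160526-112162501), was at 4.43 and 4.87 FPKM in the controls and at 7.15 and 7.38 FPKM under KIF26B siRNA. The members of each group lay close together and the groups were apart (limma log2 fold change 0.55 ± 0.12, SE, unadjusted p = 0.00886, adjusted p = 0.242). SNHG15, the host of SNORA9 (chr7:44983023-44986696), was at 6.37 and 6.08 FPKM in the controls and 9.95 and 8.73 FPKM under KIF26B siRNA (limma log2 fold change 0.51 ± 0.12, SE, unadjusted p = 0.0146, adjusted p = 0.248). Here the library labelled KIF26B siRNA replicate 1 was the highest. SNHG20 (chr17:77088643-77094986) was at 0.921 and 0.866 FPKM in the controls and 1.55 and 1.60 FPKM under KIF26B siRNA, a ratio of 1.77. Since 1 was added to each FPKM, its log2 fold change of 0.44 ± 0.11 understated this ratio (SE, limma, unadjusted p = 0.0149, adjusted p = 0.248), and with a variance trend its unadjusted p was 0.0514.

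SNHG9 and SNHG30 were the members with lower levels. SNHG9 (ENSG00000255198), the host of SNORA78, is a short gene beside RPS2 (chr16:1964996-1965504). It was at 5.27 and 7.28 FPKM in the controls and at 2.46 and 1.71 FPKM under KIF26B siRNA, which rest on 57, 99, 29 and 17 reads. Both KIF26B siRNA libraries were below the lower control, with means of 6.28 ± 1.42 and 2.09 ± 0.535 FPKM (SD, n = 2 each), and the control level was 3.01 times that of the KIF26B siRNA group. The log2 fold change was -1.23 ± 0.22 (SE, limma, unadjusted p = 0.00478, adjusted p = 0.242), and it was -1.44 to -1.03 with each library left out in turn, always under an unadjusted p of 0.05. SNHG30 (chr17:35568114-35574313) was at 3.39 and 3.77 FPKM in the controls and 2.05 and 2.39 FPKM under KIF26B siRNA. Its groups were also apart, and its log2 fold change was -0.51 ± 0.13 (SE, limma, unadjusted p = 0.0163, adjusted p = 0.252).

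With either control left out, the calls other than those of SNHG8 and SNHG9 no longer passed at an unadjusted p below 0.05 (limma). In these fits the spread comes from the KIF26B siRNA libraries alone, and calls over all genes tested fell as well. Without control siRNA replicate 1, the log2 fold change was 0.73 for SNHG29, 0.74 for GAS5, 0.80 for ZFAS1 and 0.54 for SNHG15. It was 0.49 for EPB41L4A-AS1, 0.47 for SNHG20 and -0.57 for SNHG30. Without control siRNA replicate 2 the values were 0.75, 0.78, 0.59, 0.49, 0.61, 0.42 and -0.45 in the same order. The direction of these log2 fold changes stayed as in the fit with all libraries.

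**Figure D2:**
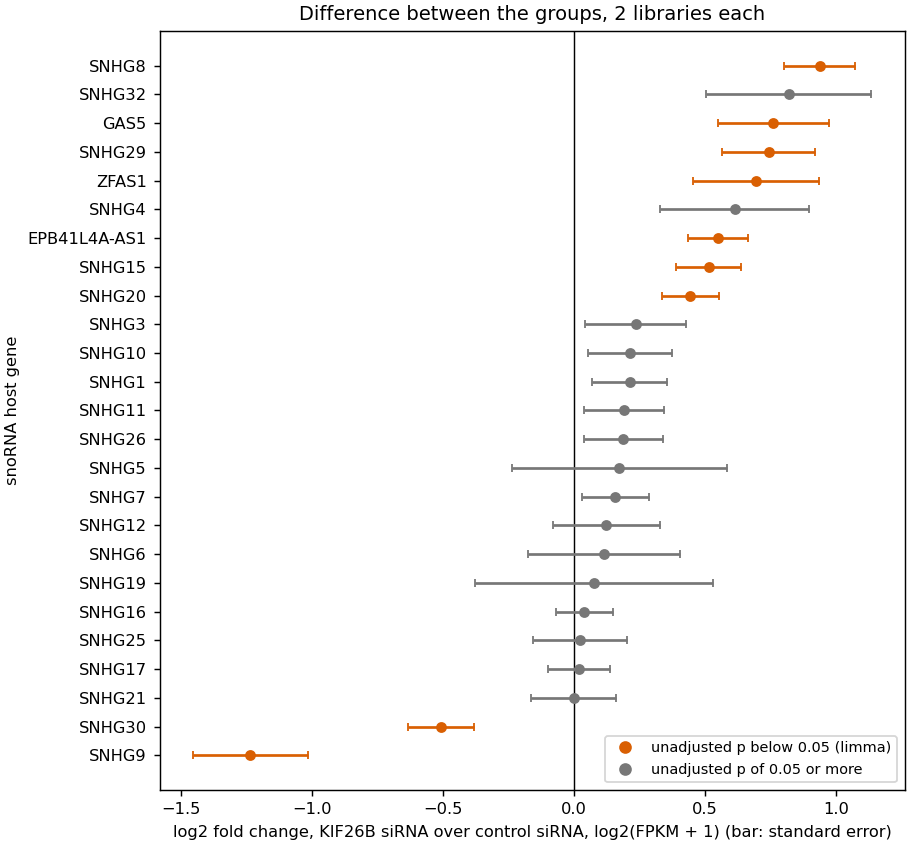
Log2 fold change of each tested snoRNA host gene, KIF26B siRNA over control siRNA on the log2(FPKM + 1) scale, from limma with 2 libraries per group. Points are estimates, bars are 1 standard error, and orange marks an unadjusted p below 0.05, which 7 genes reached above 0 and 2 below 0.

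SNHG32, the host of SNORD48 and SNORD52 (chr6:31834916-31839761), had the next highest log2 fold change after SNHG8 and did not pass. It was at 31.3 and 35.2 FPKM in the controls and at 44.5 and 79.2 FPKM under KIF26B siRNA, with a difference of 0.82 ± 0.31 (SE, limma, unadjusted p = 0.0594, adjusted p = 0.316). The groups were apart, but the KIF26B siRNA libraries differed from each other by a factor of 1.78. SNHG4, which shares exon sequence with MATR3 (chr5:139274101-139284900), was at 6.19 and 5.79 FPKM in the controls and 12.8 and 7.28 FPKM under KIF26B siRNA. The library labelled KIF26B siRNA replicate 1 held most of this difference (limma log2 fold change 0.61 ± 0.28, SE, unadjusted p = 0.0960, adjusted p = 0.372).

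The remaining 14 tested members had log2 fold changes from -0.00028 (SNHG21) to 0.24 (SNHG3), and none passed at an unadjusted p below 0.05. SNHG1, host of a large cluster of box C/D snoRNAs, was at 38.1 and 38.5 FPKM in the controls and 40.6 and 48.9 FPKM under KIF26B siRNA. SNHG16, host of the SNORD1 family, was at 21.3 FPKM in both controls and at 21.6 and 22.2 FPKM under KIF26B siRNA. SNHG17, host of SNORA71 copies, was at 6.02 and 6.33 FPKM in the controls and 6.60 and 5.98 FPKM under KIF26B siRNA. The last pair of genes differed between the groups by 0.04 ± 0.11 and 0.02 ± 0.12 on the log2 scale (SE).

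A further set lay near the controls in the library labelled KIF26B siRNA replicate 1 and above them in replicate 2. SNHG3, host of SNORA73A and SNORA73B, was at 13.9, 14.1, 14.1 and 19.6 FPKM, in the order of both controls, the library labelled KIF26B siRNA replicate 1, and replicate 2. In the same order SNHG7 was at 14, 14.1, 14.7 and 16.9 FPKM. SNHG10, host of SCARNA13, was at 3.30, 3.08, 3.35 and 4.44 FPKM. In each of them replicate 2 of the KIF26B siRNA group stood apart from 3 libraries of like level, as it did for SNHG11 at 2.54, 2.45, 2.58 and 3.44 FPKM. SNHG26, host of SNORD93, had the opposite order at 2.27, 2.24, 3.12 and 2.34 FPKM. SNHG25, host of SNORD104, was at 4.58, 3.21, 3.87 and 3.98 FPKM, with both KIF26B siRNA libraries between the controls.

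The libraries labelled KIF26B siRNA differed from each other more than the controls did. The median absolute log2 difference between the members' values was 0.06 for the controls and 0.31 for the KIF26B siRNA libraries, and over all genes tested it was 0.07 and 0.28. Replicate 2 exceeded the library labelled replicate 1 in 20 of 25 members, or 80%, against 52.7% of all genes tested. The library labelled replicate 1 lay above both controls for 16 members, or 64%, against 41.1% of all genes. Replicate 2 lay above both controls for 21 members, or 84%, against 44% of all genes. The median difference from the control mean was 0.06 in the library labelled replicate 1 and 0.38 in replicate 2, against -0.02 and -0.0046 over all genes.

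For 5 members, or 20%, the library labelled KIF26B siRNA replicate 1 lay below both controls and replicate 2 above both, an order that 14% of all genes tested also had. SNHG17, given above, had the reverse order. SNHG5, host of SNORD50A and SNORD50B (chr6:85677007-85678733), was at 25.9 and 26.1 FPKM in the controls, at 19.7 FPKM in the library labelled KIF26B siRNA replicate 1 and at 44 FPKM in replicate 2. SNHG6, host of SNORD87, was at 114 and 117 FPKM in the controls, with 95.9 and 163 FPKM in the same order. SNHG19, host of SNORD60 (chr16:2154782-2155358), was at 53.9 and 68.9 FPKM in the controls, with 42.2 and 98.1 FPKM. Replicate 2 was 2.24 times the library labelled replicate 1 for SNHG5, 1.70 times for SNHG6 and 2.33 times for SNHG19. SNHG12 at 11.4, 12.3, 10.9 and 15.5 FPKM and SNHG21 at 1.74, 1.46, 1.33 and 1.89 FPKM showed the same order with smaller steps. The group log2 fold changes of SNHG5, SNHG6 and SNHG19 were 0.17 ± 0.41, 0.11 ± 0.29 and 0.08 ± 0.45 (SE), so for them the mean of the KIF26B siRNA group describes neither library.

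Each KIF26B siRNA library was also set against both controls alone with limma, where the spread comes from the controls only and the lone library is assumed to vary like them. The library labelled replicate 1 gave 9 members higher and 4 lower at an unadjusted p below 0.05, where 39.9% of all genes passed in either direction. Replicate 2 gave 17 members higher and 2 lower, where 46.6% of all genes passed. SNHG5 differed by -0.39 in the library labelled replicate 1 and by 0.73 in replicate 2, and SNHG6 by -0.27 and 0.49. SNHG32 differed by 0.41 and 1.23, and SNHG4 by 0.98 and 0.25. At an adjusted p below 0.05, replicate 2 alone gave 9 members, against 17.3% of all genes, and the library labelled replicate 1 gave 0. The 9 members were SNHG29, GAS5, SNHG32, SNHG5, SNHG8, SNHG6, ZFAS1, SNHG3 and SNHG20, with limma adjusted p from 0.0463 to 0.0499. The comparisons share their controls, so they are not independent of each other.

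**Figure D3:**
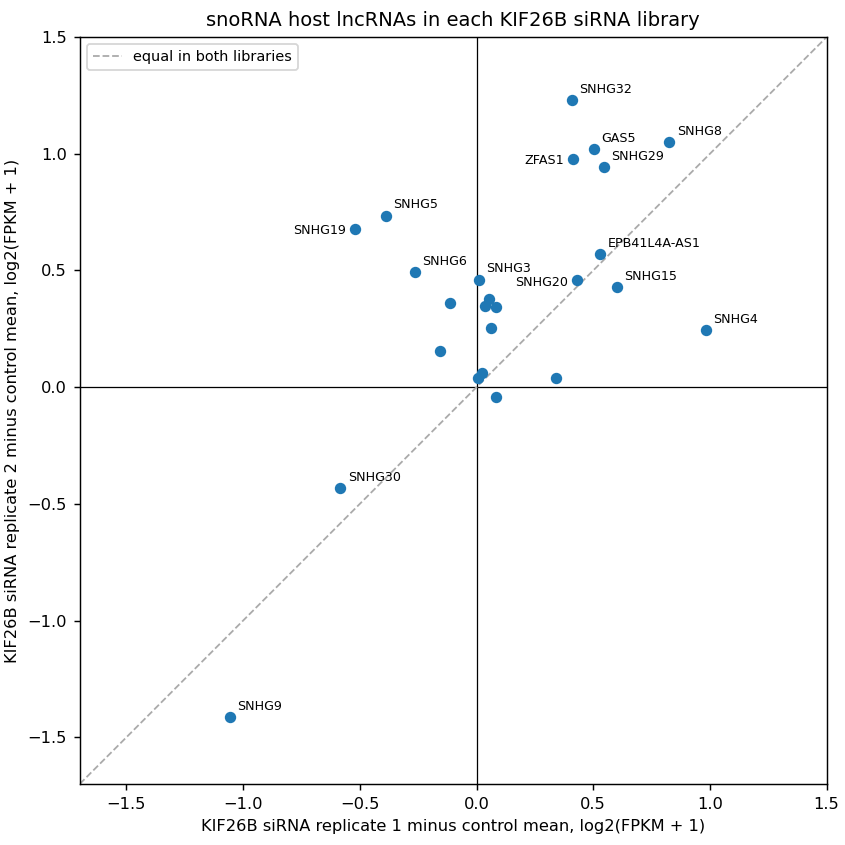
Difference from the control mean on the log2(FPKM + 1) scale for each tested snoRNA host gene, with the library labelled KIF26B siRNA replicate 1 on the x axis and replicate 2 on the y axis. The controls are shared by both axes, each point is 1 gene, and 20 of 25 points lie above the dashed line of equal values, with SNHG5, SNHG6 and SNHG19 at the upper left.

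Members with and without a TOP-like start by the count above were set side by side, a split that depends on where the start is annotated. Of the 10 tested members with such a start, 2 were higher at an unadjusted p below 0.05 and 0 lower, and of the 11 without one, 4 were higher and 1 lower. Over all genes tested, 7.74% were higher and 8.68% lower. Their median log2 fold changes were 0.17 and 0.21. In the library labelled KIF26B siRNA replicate 1 the medians were 0.07 and 0.08, and in replicate 2 they were 0.52 and 0.38. Replicate 2 exceeded the library labelled replicate 1 in 8 of 10 and in 10 of 11 members. The 2 higher members with a TOP-like start were SNHG8 and ZFAS1, whose windows are printed above.

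The snoRNAs themselves formed a second readout that the choice of members did not use. The annotation places 99 listed snoRNA genes within 20 of the members, and 72 of these lie in SNHG14, the imprinted host of the SNORD115 and SNORD116 clusters. All 72 were listed at 0, and SNHG14 itself was at 0.0141 to 0.0217 FPKM. Of all 99, 81 were listed at 0 in every library, 15 reached a mean of 1 FPKM and 14 had at least 20 reads over the 4 libraries. The study's methods describe poly(A) selection, and mature snoRNAs carry no poly(A) tail, so reads of a released snoRNA and of unspliced host RNA cannot be told apart here. Any snoRNAs of the 11 other members, GAS5, SNHG1, SNHG5, SNHG6, SNHG7, SNHG8, SNHG9, SNHG15, SNHG20, SNHG21 and SNHG29, were not analysed here.

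Of the 15 nested snoRNAs tested, 6 passed at an unadjusted p below 0.05, where 16.4% of all genes did, and none at an adjusted p below 0.05. The box C/D snoRNAs that the comparison turns on are printed below in the DNA letters of the GENCODE transcripts, with the C box TGATGA and the D box CTGA in capitals where a script found them, since SNORD104 had the highest level and the SNORD12 copies come from 1 host.
SNORD104: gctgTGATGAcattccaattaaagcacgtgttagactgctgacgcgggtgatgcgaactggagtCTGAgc
SNORD99: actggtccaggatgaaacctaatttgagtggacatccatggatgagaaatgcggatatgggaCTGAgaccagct
SNORD12B: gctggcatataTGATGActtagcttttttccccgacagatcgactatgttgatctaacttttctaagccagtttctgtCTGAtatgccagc
SNORD12C: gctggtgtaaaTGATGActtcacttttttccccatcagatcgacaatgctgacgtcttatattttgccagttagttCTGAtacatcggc
In SNORD99 no exact TGATGA was found, so its D box alone is marked. SNORD12B and SNORD12C are both hosted by ZFAS1.

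SNORD104, within SNHG25, was at 88.8 and 120 FPKM in the controls and 43.5 and 68.0 FPKM under KIF26B siRNA, from 122, 207, 65 and 86 reads. The groups were apart, with both KIF26B siRNA libraries lower (limma log2 fold change -0.91, unadjusted p = 0.0351, adjusted p = 0.284). Its host SNHG25 differed by 0.02 ± 0.18 (SE) between the groups. SNORD99, within SNHG12, was at 13.8 and 14.8 FPKM in the controls and 7.59 and 9.72 FPKM under KIF26B siRNA, from 20, 27, 12 and 13 reads. It too was lower in both (limma log2 fold change -0.67, unadjusted p = 0.0137, adjusted p = 0.248), while SNHG12 differed by 0.12 ± 0.20 (SE).

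SNORD12C, within ZFAS1, was at 4.58 and 5.01 FPKM in the controls and 7.36 and 8.71 FPKM under KIF26B siRNA, from 8, 11, 14 and 14 reads. It was higher in both, as was its host (limma log2 fold change 0.64, unadjusted p = 0.00957, adjusted p = 0.242). SNORD12B, from the same host, was at 8.40, 9.35, 9.26 and 10.9 FPKM in the same order of libraries, and its groups overlapped. SNORA73B, an H/ACA snoRNA within SNHG3, was at 6.24 and 7.35 FPKM in the controls and 10.1 and 11.4 FPKM under KIF26B siRNA (limma log2 fold change 0.59, unadjusted p = 0.0138, adjusted p = 0.248). In its host the library labelled KIF26B siRNA replicate 1 lay between the controls, whereas for the snoRNA both libraries were above them.

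SNORA71A, within SNHG17, was at 4.18 and 1.81 FPKM in the controls and 6.29 and 7.02 FPKM under KIF26B siRNA (limma log2 fold change 1.0, unadjusted p = 0.0396, adjusted p = 0.289). The SNORA71 genes are related copies, and how reads were split among them was not tested. SNORA71C was at 11.0, 13.3, 13.3 and 10.3 FPKM and SNORA71B at 3.18, 4.77, 4.99 and 2.85 FPKM, both with overlapping groups. SNORA60, within SNHG11, was at 1.14, 1.81, 2.45 and 3.30 FPKM from 3, 6, 7 and 8 reads (limma unadjusted p = 0.0362, adjusted p = 0.284). The counts behind most of these values are low, and the limma fit on FPKM takes no account of that.

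The other named snoRNAs did not pass. SNORD93 (SNHG26) was at 11.7, 10.4, 6.33 and 11.2 FPKM, SNORD1B (SNHG16) at 6.06, 3.86, 6.13 and 3.29 FPKM and SCARNA13 (SNHG10) at 0.556, 2.36, 1.19 and 1.81 FPKM. SNORA13 (EPB41L4A-AS1) was at 1.53, 2.13, 4.93 and 1.25 FPKM from 4, 7, 14 and 3 reads, while its host was higher in both KIF26B siRNA libraries. SNORA74 (SNHG4) was at 2.53, 1.72, 2.32 and 0.785 FPKM.

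The 3 expressed members under 1 FPKM rest on few reads. SNHG31 was at 0.218 and 0.231 FPKM in the controls and 0.311 and 0.604 FPKM under KIF26B siRNA, from 9, 12, 14 and 23 reads. SNHG22 was at 0.177, 0.109, 0.217 and 0.171 FPKM from 9, 7, 12 and 8 reads. SNHG31 had both KIF26B siRNA libraries above the controls, whereas the groups of SNHG22 and SNHG14 overlapped.

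Several members share exon sequence with a neighbour. Of the 25 tested members, 18 overlap an exon of another listed gene, 6 of them on the same strand, and whether the counting used the strand is not given in the sources used here. Reads from shared exon sequence cannot be told apart without strand, and for pairs on the same strand not by strand either. SIL1, opposite SNHG4, was at 4.90 and 5.19 FPKM in the controls and 8.83 and 8.22 FPKM under KIF26B siRNA, higher in both (limma log2 fold change 0.66, unadjusted p = 0.00466, adjusted p = 0.242). GLRX5, opposite SNHG10, was lower at 37.2, 37.7, 25.9 and 21.6 FPKM (limma log2 fold change -0.64, unadjusted p = 0.00986, adjusted p = 0.242). TRNAU1AP, opposite SNHG12, was also lower at 7.57, 7.87, 4.98 and 6.12 FPKM (limma log2 fold change -0.42, unadjusted p = 0.0410, adjusted p = 0.290). The genes opposite SNHG8 and ZFAS1 did not pass at an unadjusted p below 0.05. PRSS12, opposite SNHG8, was at 5.36, 5.59, 5.08 and 3.53 FPKM, and ZNFX1, opposite ZFAS1, was at 9.86, 10.0, 15.1 and 8.75 FPKM. SEC14L1, which shares a strand with SNHG20, was at 13.7, 13.1, 9.98 and 11.7 FPKM, both KIF26B siRNA libraries below the controls. RCC1, which shares a strand with SNHG3, was at 34.7, 34.9, 31.7 and 22.9 FPKM, lowest in replicate 2, where SNHG3 was highest.

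Genes with known ties to snoRNA hosts, together with other abundant lncRNAs, were read in the same fit. They are given by counts at an unadjusted p below 0.05 and by medians. Of 176 such genes tested, 29 passed in all, a share near the 16.4% of all genes. With a pseudocount of 0.1, 19 passed, where 2271 of all 14523 genes tested did. Among 20 TOP mRNAs other than those of ribosomal proteins, 6 were higher and 0 lower, with a median log2 fold change of 0.27, where 7.74% of all genes were higher and 8.68% lower. The translation elongation factor EEF1A1, the most abundant of them, was at 1545 and 1544 FPKM in the controls and 2310 and 2539 FPKM under KIF26B siRNA. EEF2 was at 781, 793, 1077 and 1130 FPKM in the same order, and EIF3F, a subunit of an initiation factor, at 9.24, 9.78, 16.1 and 15.3 FPKM. In all of these the controls lay close together and both KIF26B siRNA libraries above them. EIF4B differed by 0.53 and PABPC1, the poly(A)-binding protein, by -0.03 on the log2 scale. Among 82 cytosolic ribosomal protein genes, 14 were higher and 0 lower, with a median of 0.19, the same as that of the snoRNA hosts at 2 decimals. RPL11 was at 176 and 189 FPKM in the controls and 259 and 311 FPKM under KIF26B siRNA. RPL23A differed by 0.51, RPL22 by 0.42 and RPL26L1 by 0.84 on the log2 scale. The abundant RPS2, RPS12 and RPL8 differed by 0.12, 0.27 and 0.10 and did not pass. Replicate 2 exceeded the library labelled replicate 1 in 69 of the 82. The log2 fold change was above 0 in 70 of the 82 and below 0 in 12. It was above 0 in 18 of the 20 other TOP mRNAs and below 0 in 2, against 48.4% above 0 over all genes tested. Both KIF26B siRNA libraries lay above both controls in 58 of the 82 and 17 of the 20, and below both in 3 and 0. Shares over all genes tested were 24.9% above and 27.8% below.

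Other groups stayed nearer 0 in the median. Their counts stand beside 7.74% higher and 8.68% lower over all genes tested. Of 19 snoRNP proteins and assembly factors, 2 were higher and 1 lower, with a median of 0.01. NOLC1, a nucleolar chaperone of snoRNPs, was at 43.6 and 44.2 FPKM in the controls and 86.4 and 89.1 FPKM under KIF26B siRNA (limma log2 fold change 0.98, unadjusted p = 0.000827, adjusted p = 0.242). The pseudouridine synthase DKC1 differed by 0.38 and RPAP3, a factor of box C/D snoRNP assembly, by -0.51, while the box C/D methyltransferase FBL was at 111, 116, 114 and 114 FPKM and NOP10 differed by 0.23. Of 18 nonsense-mediated decay and exon junction factors, 0 were higher and 2 lower, with a median of -0.02. The exon junction core proteins EIF4A3 and MAGOH were the lower ones, with EIF4A3 at 51.7, 52.7, 40.4 and 41.3 FPKM and MAGOH at 28.1, 31.1, 23.8 and 22.4 FPKM, and PNRC2 differed by 0.20.

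Of 24 protein-coding snoRNA hosts without ribosomal proteins, 3 were higher and 1 lower, with a median of 0.13. For this group and those below, the shares over all genes tested were 7.74% higher and 8.68% lower, or 16.4% in either direction. EEF2, HSPA9 and DKC1 were the higher ones, HSPA9 at 44, 45, 57.5 and 62.0 FPKM, and CWF19L1 was lower at 10.4, 11.1, 7.66 and 8.26 FPKM. EEF1B2 differed by 0.26 and HSPA8 by 0.19 without passing. Of 11 other lncRNAs with no snoRNA host name, PVT1 alone passed, at 5.69, 5.77, 9.13 and 7.56 FPKM, and the median was 0.13. The 11 include DANCR, which hosts SNORA26 although its name does not say so. NEAT1 was at 90.7, 91.8, 70.0 and 121 FPKM, MALAT1 at 38.1, 41.4, 31.4 and 52.1 FPKM and NORAD at 68.7, 71.0, 111 and 53.1 FPKM. NEAT1 and MALAT1 thus held the order of libraries seen in SNHG5 and SNHG6, and NORAD held the opposite one. Of 10 regulators of TOP mRNAs, the S6 kinase gene RPS6KB1 alone passed, lower at 18.0, 18.7, 11.7 and 11.1 FPKM, and the median was -0.12. LARP1, which binds TOP starts, was at 22.9, 22.6, 30.9 and 20.2 FPKM, CNBP differed by 0.12 and EIF4EBP1 by 0.20.

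**Figure D4:**
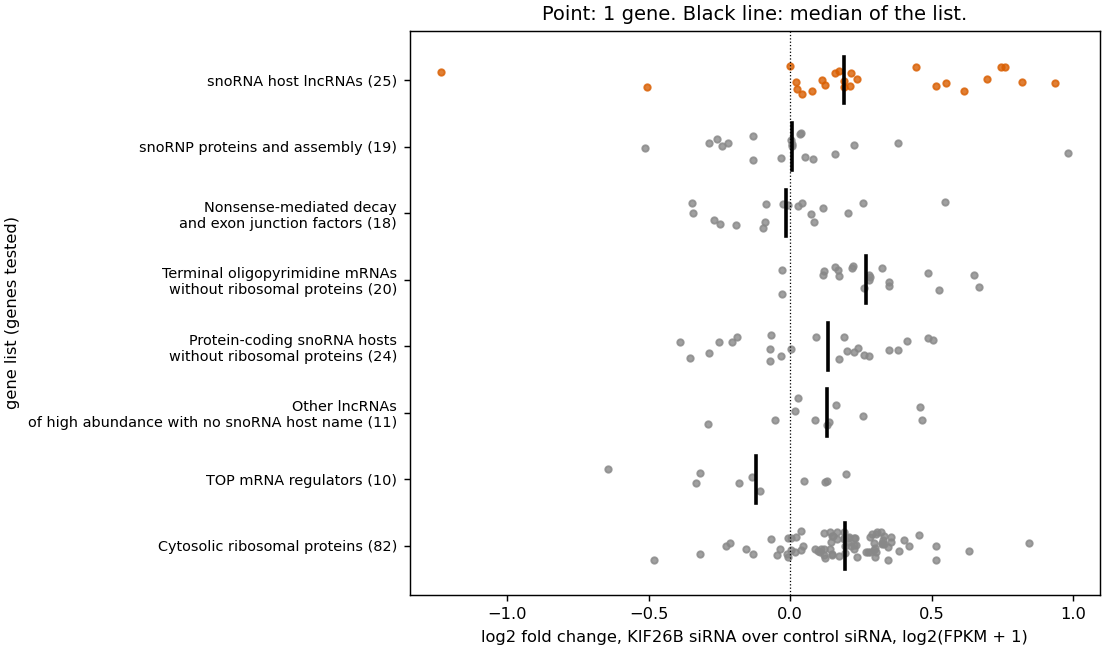
Log2 fold change (KIF26B siRNA over control siRNA, log2(FPKM + 1) scale) of each tested gene in 8 groups, 1 point per gene with random vertical spread, and a black line at each median. The 25 snoRNA host lncRNAs (orange) have a median of 0.19, as do the 82 cytosolic ribosomal proteins, and their values spread from -1.23 to 0.94.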

How the data were processed

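RNA was sequenced in 4 HCT116 libraries, 2 per group, and groups came from the labels. The authors deposited FPKM per gene and library. Per the study's methods, poly(A) RNA was sequenced as read pairs and aligned with HISAT2. The submitters' processing notes name HISAT2 2.0.5 and featureCounts 1.5.0-p3. The methods name hg19 and the notes hg38, and since the values carry gene identifiers only, coordinates printed are those of RefSeq GRCh38.p14. The unit was read from the values: at 1 length per gene, 99.3% of 34638 genes gave whole reads in all libraries (up to a common whole factor), as did 30 of 2000 genes with moved values.

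Computed here: limma 3.58.1 in R 4.3.3 on log2(FPKM + 1) of the 14523 genes whose mean reached 1 FPKM, without covariates, with Benjamini-Hochberg adjustment over all of them. The fit had 2 residual and 2 prior degrees of freedom. It was also run on simulated reads with the same spread in both groups, which the groups here do not have. Alternatives were a replicate block, a pseudocount of 0.1, other filters and scalings, a variance trend, limma-voom on the recovered reads and leaving out each library. Same-numbered libraries did not deviate together (correlation -0.003), so the numbers were not taken as pairs. Nested snoRNAs and overlaps came from GENCODE on GRCh37.

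Members and lists were chosen with earlier results of these data known. Named genes were all members, KIF26B, nested snoRNAs with at least 20 reads, and per list the 3 most abundant genes and up to 4 of smallest unadjusted p below 0.05. Overlapping neighbours were named after their values were seen.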

Additional observations from a re-analysis of the deposited data

How the results depend on the processing

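Under the 8 alternatives that kept all libraries, SNHG8, SNHG9, GAS5, SNHG29, SNHG15, EPB41L4A-AS1 and SNHG30 kept their direction and an unadjusted p below 0.05. ZFAS1 did so in 6 of 8 (its highest p was 0.0551) and SNHG20 in 5 of 7. The replicate block gave 7 members higher and 2 lower, as without it, and 0 at an adjusted p below 0.05. Under the block the unadjusted p was 0.0541 for SNHG20 and 0.0228 for SNHG32, and it changed no other member's call. It moved the genes passing in the 7 related lists from 29 of 176 to 11, and over all 14523 genes from 2385 to 1725. A pseudocount of 0.1 and scaling by total recovered reads put the lists at 19 each, where 2271 and 2427 of all genes passed. Without a filter on low values 45 of 184 passed, where 4378 of all 34638 genes did. With 1 library left out, members higher ranged from 1 to 17, lower from 1 to 4, past the study's thresholds from 1 to 4, at an adjusted p below 0.05 from 0 to 9, and genes of the related lists from 1 to 91. Over all genes tested, limma calls at an unadjusted p below 0.05 likewise fell without either control and rose without either KIF26B siRNA library. The width of these ranges is therefore not particular to the members. The median log2 fold change of the members ranged from 0.06 to 0.38 in these fits, against -0.02 to -0.0046 over all genes tested. The log2 fold change ranged from -0.39 to 0.73 for SNHG5 and from -0.27 to 0.49 for SNHG6, below 0 without KIF26B siRNA replicate 2 and highest without the library labelled KIF26B siRNA replicate 1. The cause of these shifts was not tested.

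With 2 libraries per group, and KIF26B lower in one KIF26B siRNA library only, the group difference rests on libraries that differ from each other. SNHG9, SNHG25 and most nested snoRNAs rest on few reads, and counting error there was not modelled by limma on FPKM.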

Other observations

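A pair of snoRNA host transcripts fell outside the rule for members and were read after the values were seen. DANCR hosts SNORA26 and is among the other lncRNAs with no snoRNA host name above. It was at 14.8 and 14 FPKM in the controls and 16.9 and 11.3 FPKM under KIF26B siRNA. Its KIF26B siRNA libraries lay on opposite sides of both controls, with the library labelled KIF26B siRNA replicate 1 the higher, the reverse of SNHG5 and SNHG6. LINC00888, also called SNHG33, was at 3.35 and 3.31 FPKM in the controls and 2.57 and 2.67 FPKM under KIF26B siRNA. Both were lower than the controls, with a limma log2 fold change of -0.26 that did not pass (unadjusted p = 0.0768, adjusted p = 0.344).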
